A study of Homo sapiens with 12 samples.

Results

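Box H/ACA small nucleolar RNAs and small Cajal body RNAs were followed over the 4 groups of the study. The members were the genes whose symbol begins with SNORA or SCARNA and a digit, taken from rows of the array table that the platform annotation gives to exactly 1 gene. Where a gene had several rows, the row with the highest mean over the 12 arrays stood for it, so members were chosen by symbol and by overall level, and no contrast between groups was used. This gave 77 members of the 18417 genes tested, 61 named SNORA and 16 named SCARNA, from 83 rows. The members with more than 1 row were SCARNA9, SCARNA9L, SCARNA17, SNORA10 and SNORA15, and the rows of each moved the same way with TRAIL in parental cells. No filter on low values was applied, so all 77 members entered every test. A further 28 rows name a symbol of this kind together with another gene and were kept apart.

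All arrays are of MDA-MB-231, a cell line from a human breast cancer without hormone receptors or HER2 amplification, grown as the parental line or as a subline that had been treated to resistance (TTR). Treated cells received the death ligand TRAIL, which binds receptors on the cell surface, at a dose of 100 ng per ml over 2 hours. The groups were parental cells with TRAIL, parental cells untreated, TTR cells with TRAIL and TTR cells untreated, each on 3 one-colour arrays. The labels do not say with which agent TTR cells were made resistant, or whether they are 1 clone. They also do not call the replicates separate cultures, so the p-values measure the spread between these arrays, which may be technical. An unexplained tag in the sample descriptions has one form on all parental arrays and another on all TTR arrays, so that tag and the line cannot be told apart.

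As background, box H/ACA RNAs fold into paired hairpins that end in the letters ACA, and they guide the change of chosen uridines to pseudouridine in ribosomal and spliceosomal RNA. Each one sits in a particle with DKC1, which is the pseudouridine synthase, and with NHP2, NOP10 and GAR1. Small Cajal body RNAs modify small nuclear RNAs. Those with a box H/ACA part carry a further motif, the CAB box, which the protein WRAP53 binds and which keeps them in Cajal bodies. Some Cajal body RNAs are of the box C/D type or of a mixed type, among them SCARNA9 and SCARNA17, so the symbol SCARNA marks a place in the nucleus rather than a box. In human cells most of these RNAs are cut from introns of host genes, many of which encode proteins of translation or ribosome assembly.

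The deposited values are log2 levels that, per the submitters' processing notes, came from RMA, with settings not given. Over all rows the array medians were 4.58 to 4.61 in parental cells with TRAIL and 4.29 to 4.31 in untreated parental cells. They were 4.38 to 4.40 in TTR cells with TRAIL and 4.24 to 4.30 in untreated TTR cells. TRAIL thus moved the array median by 0.29 in parental cells and by 0.11 in TTR cells, and counts are given below also after centring each array on its median. A basal and mesenchymal marker list of 6 genes averaged 8.94 to 9.11 in parental cells with TRAIL and 9.37 to 9.73 over the arrays of the other groups. The mean of 4 measured blood markers stayed between 3.32 and 3.75 on every array, and that of 6 fibroblast and endothelial markers between 3.50 and 3.86. A list of 9 luminal markers, set beforehand as not expected in this line, averaged 5.66 to 5.88 over the arrays. The median level over all genes was 5.11. No detection call was used, so low levels can be background, and levels of different genes come from different probes and are set side by side only roughly.

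TRAIL raised most of these RNAs in parental cells within 2 hours. Of the 77 members, 67 were called higher and 0 lower at an adjusted p under 0.05 (limma, Benjamini-Hochberg over all 18417 genes), where 28.9% of all genes were called higher and 29.9% lower. No member was lower at an unadjusted p under 0.05 either (0 of 77), where 5684 of all 18417 genes were. The median member change was 1.22 on the log2 scale, against 0.05 over all other genes. At least 2-fold higher were 47 members, where 4.21% of all genes were called that far up. At least 4-fold higher were 16 members, where 225 of all 18417 genes were. The 3 TRAIL arrays lay wholly above the 3 untreated arrays for 69 members and wholly below them for 0, where this held for 31.2% and 31% of all genes. After median centring 56 members were called higher and 1 lower, with a median of 0.93, where 12.6% and 46.7% of all genes were. Quantile normalization of the deposited values, run in place of centring, gave 60 higher and 1 lower, with a median of 1.27. Over all genes the shares were then 19.1% and 31.4%. The member called lower under both scalings was SNORA36C, at −0.42 and −0.28, a member singled out here after its values were seen. In bulk RNA, more RNA per cell, a larger share as other RNAs fall and a changed mix of cells cannot be told apart. Amounts per cell were not measured.

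The rise was visible on each array. The median level of the members was 7.82, 8.11 and 7.86 on the parental arrays with TRAIL, against 6.20, 6.16 and 6.28 on the untreated parental arrays. On the TTR arrays it was 6.16, 6.37 and 6.41 with TRAIL, against 5.86, 6.16 and 6.49 untreated. All 3 parental arrays with TRAIL stood above every other array, and the TTR arrays with and without TRAIL overlapped.

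SNORA41, carried in an intron of the translation elongation factor gene EEF1B2, had the largest rise. Its level was 7.47, 7.60 and 7.68 in parental cells with TRAIL, against 4.17, 4.74 and 4.40 in untreated parental cells. The groups were more than 2 units apart, and the rise was 3.14 ± 0.29 on the log2 scale (SE), or 8.84-fold, with a limma adjusted p of 9.8e-08. In TTR cells SNORA41 was at 4.53, 5.05 and 4.87 with TRAIL and at 3.08, 4.38 and 4.75 untreated. These groups overlapped, 1 untreated TTR array was far below the others, and the difference of 0.75 did not pass the test (adjusted p = 0.147).

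SNORA28, carried in the translation initiation factor gene EIF5, was at 7.67, 7.93 and 7.53 in parental cells with TRAIL, against 4.59, 4.61 and 4.79 in untreated parental cells. Its rise was 3.04 ± 0.19 (limma adjusted p = 1.3e-09). In TTR cells it was at 5.55, 5.85 and 6.20 with TRAIL and at 4.90, 5.24 and 5.78 untreated, a difference of 0.56 that did not pass (adjusted p = 0.0994). SNORA28 therefore separated the parental arrays without overlap, while its TTR arrays overlapped.

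SNORA65 lies in the ribosomal protein gene RPL12 and SNORA33 in the ribosomal protein gene RPS12. SNORA65 was at 10.19, 10.27 and 9.97 in parental cells with TRAIL, against 6.98, 7.37 and 7.11 in untreated parental cells, a rise of 2.99 ± 0.18 (limma adjusted p = 9.4e-10). In TTR cells it was at 7.60, 7.53 and 7.42 with TRAIL and at 6.29, 6.83 and 7.28 untreated, a rise of 0.72 (adjusted p = 0.0318). Both lines showed SNORA65 without overlap, yet the call in TTR cells was lost under 6 of 20 alternatives. SNORA33 was at 7.68, 7.84 and 7.80 in parental cells with TRAIL, against 4.76, 4.98 and 4.93 in untreated parental cells, a rise of 2.88 ± 0.13 (adjusted p = 5.5e-11). In TTR cells it was at 5.30, 5.83 and 5.47 with TRAIL and at 4.80, 5.01 and 5.22 untreated, a rise of 0.52 (adjusted p = 0.0332).

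SNORA74A and SNORA55 were the members with the largest rises in TTR cells, and both rose further in parental cells. SNORA74A was at 9.15, 9.24 and 8.92 in parental cells with TRAIL, against 6.47, 6.41 and 6.56 in untreated parental cells, a rise of 2.62 ± 0.20 (limma adjusted p = 1.3e-08). In TTR cells it was at 6.53, 6.93 and 6.51 with TRAIL, against 4.82, 5.48 and 5.96 untreated, a rise of 1.24 ± 0.20 (adjusted p = 0.0016). The TTR arrays with TRAIL thus reached only the level of untreated parental cells. SNORA55, which lies in the poly(A)-binding protein gene PABPC4, was at 8.81, 8.84 and 8.87 in parental cells with TRAIL, against 6.18, 6.20 and 6.47 in untreated parental cells, a rise of 2.55 ± 0.12 (adjusted p = 5.6e-11). In TTR cells it was at 7.60, 7.77 and 7.75 with TRAIL, against 6.18, 6.35 and 6.64 untreated, a rise of 1.32 ± 0.12 (adjusted p = 2.7e-06).

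**Figure D1:**
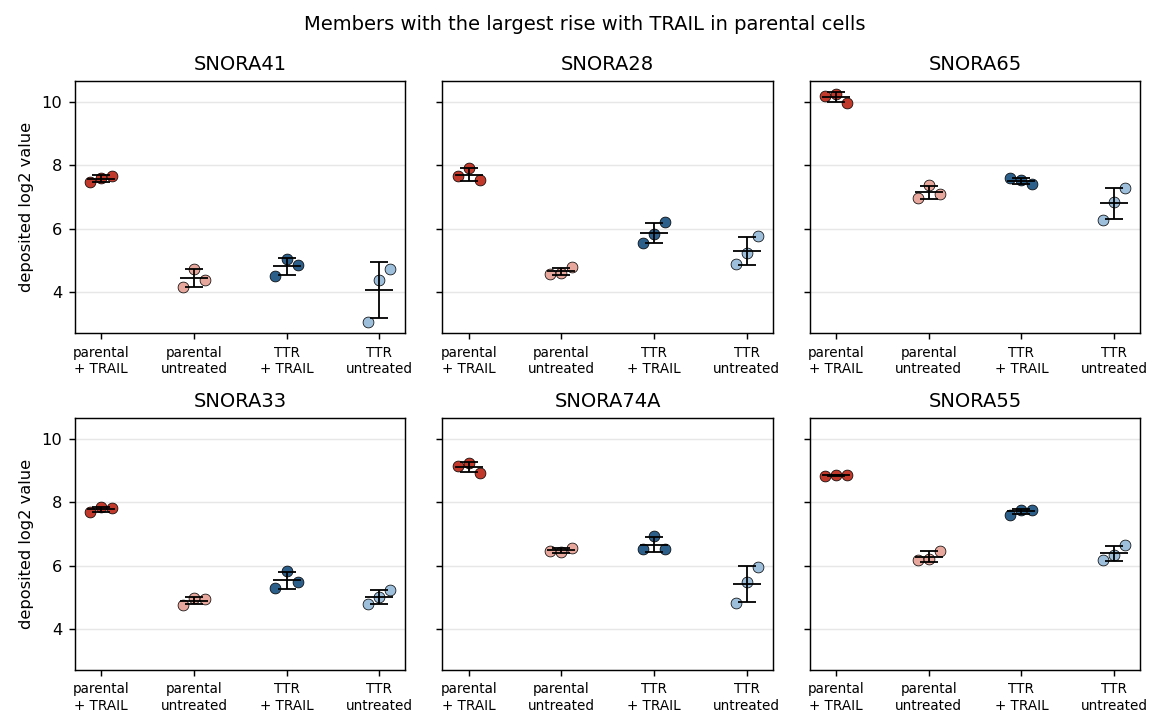
Deposited log2 level (vertical axis) of the 6 members with the largest rise with TRAIL in parental cells, by group (horizontal axis): points are the 3 arrays, the long line is their mean and the bars 1 SD. In all 6 panels the parental arrays with TRAIL lie above every other array, and for SNORA55 the TTR arrays with TRAIL, at 7.60 to 7.77, lie between them and the untreated arrays.

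The members with the highest levels rose less in fold. These 8, by their mean over the 12 arrays, were SNORA71D, SNORA23, SNORA3A, SNORA68, SNORA71C, SNORA24, SNORA71A and SNORA38B. SNORA71D, at the top, was at 12.39, 12.59 and 12.60 in parental cells with TRAIL, against 11.75, 11.79 and 12.07 in untreated parental cells, a rise of 0.66 ± 0.12 (limma adjusted p = 0.00022). SNORA23 was at 12.16, 12.33 and 12.16 with TRAIL, against 11.39, 11.47 and 11.70 untreated, a rise of 0.69 ± 0.16 (adjusted p = 0.0016). The arrays of these groups did not overlap, although the distance was under 1 unit. SNORA24, which guides pseudouridines in the small ribosomal subunit's RNA, averaged 11.59 ± 0.14 with TRAIL and 10.42 ± 0.27 untreated (SD, n = 3 each), a rise of 1.17 ± 0.18 (limma adjusted p = 2.6e-05). SNORA38B was the least steady of the 8, with 10.83, 11.09 and 10.61 with TRAIL, against 9.28, 10.23 and 10.40 untreated. Its rise of 0.87 ± 0.27 (limma adjusted p = 0.0115) was 0.53 with an adjusted p of 0.085 without untreated parental replicate 1, the lowest of these arrays. It was 0.75 with an adjusted p of 0.056 without TRAIL-treated parental replicate 2, and 0.58 with an adjusted p of 0.074 after median centring. The other 4 rose by 0.64 to 1.01. The SNORA71 copies share their host SNHG17 and belong to a family of near-identical copies, as do the SNORA70 and SNORA36 members, so that probes of these families may read more than 1 copy.

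Level set the background against which the rise stood, because other genes with high levels mostly fell. Of the 21 members with a mean of 8 or more, 20 were called higher with TRAIL in parental cells, with a median of 1.04. Of the 2244 other genes in that range, 14.9% were called higher and 70.7% lower, with a median of −0.76. Between 6 and 8, 24 of 25 members were called higher with a median of 1.82, where 21.9% of 4751 other genes were, with a median of −0.41. Between 4 and 6 all 14 members were called higher with a median of 1.66, where 47.2% of 4867 other genes were, with a median of 0.25. Under 4, where signal may be background, 9 of 17 members were called higher with a median of 0.35, where 24.4% of 6478 other genes were, with a median of 0.13. After median centring 2 members under 4 were called higher and 1 lower, with a median of 0.06. Of the 6478 other genes there, 255 were called higher and 1944 lower. The members of the 3 upper ranges kept medians of 1.37, 1.53 and 0.75 from low to high.

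**Figure D2:**
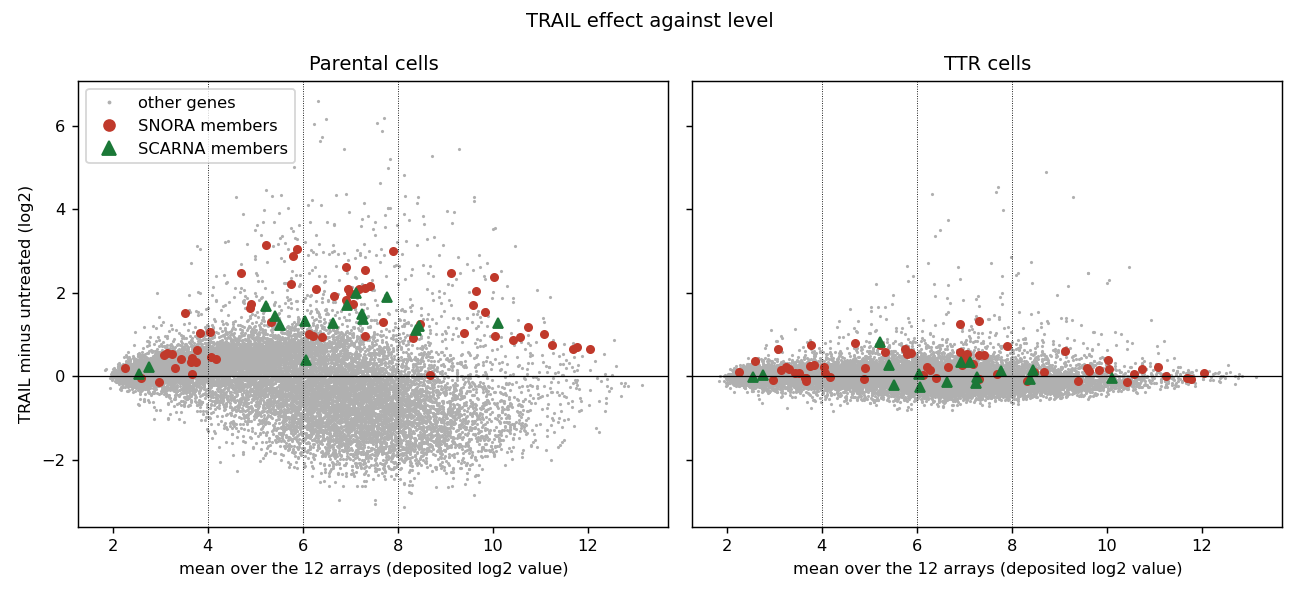
Change with TRAIL (vertical axis, log2, TRAIL minus untreated) against the mean level over the 12 arrays (horizontal axis, deposited log2 value) in parental cells on the left and TTR cells on the right. Small grey points are the 18340 other genes, red circles SNORA and green triangles SCARNA members, and dotted lines mark levels 4, 6 and 8. In parental cells the members above level 8 lie above 0 (median 1.04) while the other genes there centre below it (median −0.76), and in TTR cells the median of the members is 0.16, with single members up to 1.32.

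The 10 members not called in parental cells were SNORA3B, SCARNA4, SNORA46, SNORA35, SNORA70C, SNORA36C, SCARNA23, SNORA16B, SCARNA14 and SNORA70F. Of these, 8 had means under 4. SNORA3B is the exception at a high level. It was at 8.91, 8.83 and 8.77 in parental cells with TRAIL, against 8.90, 8.54 and 9.02 in untreated parental cells, a difference of 0.02 ± 0.14. SNORA3A lies in the same host gene, RPL27A, and was at 12.13, 12.16 and 12.15 with TRAIL, against 11.41, 11.37 and 11.74 untreated, a rise of 0.64 ± 0.16 (limma adjusted p = 0.0028). The arrays of SNORA3A did not overlap and those of SNORA3B did. After median centring the SNORA3A difference was 0.35 and did not pass (adjusted p = 0.07).

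**Figure D3:**
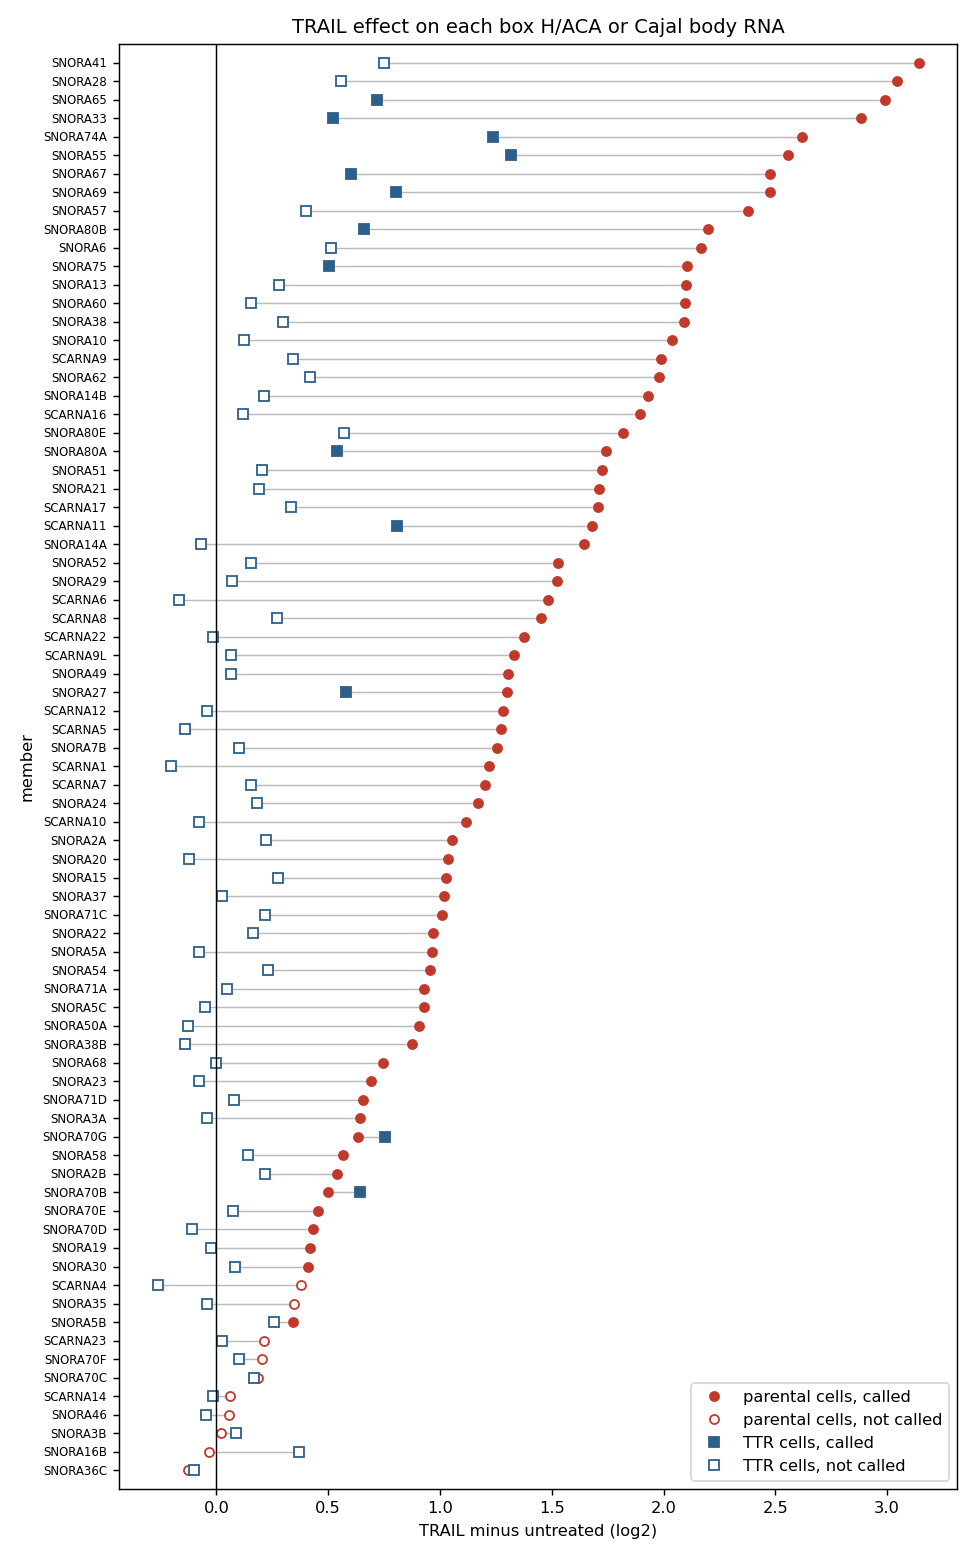
Change with TRAIL (horizontal axis, log2, TRAIL minus untreated) for each of the 77 members (vertical axis, ordered by the change in parental cells): red circles are parental cells, blue squares TTR cells, and filled symbols passed an adjusted p of 0.05. The 67 filled circles reach from 0.34 to 3.14, and the 13 filled squares from 0.50 to 1.32.

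With TRAIL in parental cells 28.9% of all genes were called higher. Of the Cajal body RNAs 13 of 16 were, with a median of 1.31, and of the SNORA members 54 of 61, with a median of 1.04. The largest rise of a Cajal body RNA was that of SCARNA9, a box C/D type RNA that guides methylation of a spliceosomal RNA. SCARNA9 was at 8.29, 8.50 and 8.96 with TRAIL, against 6.65, 6.47 and 6.67 untreated, a rise of 1.99 ± 0.19 (limma adjusted p = 1.8e-07). SCARNA9L, its related copy, rose by 1.33 ± 0.17. SCARNA17, another box C/D type RNA, was at 8.07, 8.30 and 8.03 with TRAIL, against 6.36, 6.42 and 6.49 untreated, a rise of 1.71 ± 0.11 (adjusted p = 1.4e-09). The other rises were 1.89 for SCARNA16, 1.68 for SCARNA11, 1.48 for SCARNA6, 1.45 for SCARNA8, 1.37 for SCARNA22, 1.28 for SCARNA12, 1.27 for SCARNA5, 1.22 for SCARNA1, 1.20 for SCARNA7 and 1.12 for SCARNA10. SCARNA10, SCARNA12, SCARNA5 and SCARNA6 are of the mixed type with both box C/D and box H/ACA parts. SCARNA4, SCARNA23 and SCARNA14 had differences of 0.38, 0.21 and 0.06 and were not called, and those of SCARNA14 and SCARNA23 turned negative after median centring (−0.23 and −0.08).

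SCARNA16 is the member for which a sequence was at hand, because the miRNA hairpin MIR6516 of RefSeq shares 77 of its 81 bases with the SCARNA16 gene. The hairpin is at chr17:77089417-77089497 on the + strand of GRCh38.p14 and is shown because it carries the letters that define a Cajal body box H/ACA RNA. Capitals mark UGAG, letters of the CAB box, and the ACA that stands 3 bases before the end of SCARNA16. The marks are matches of letters, and their place in the folded RNA was not checked.
MIR6516: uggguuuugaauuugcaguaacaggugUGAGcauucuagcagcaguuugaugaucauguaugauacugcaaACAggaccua
SCARNA16 was at 9.22, 9.47 and 9.19 in parental cells with TRAIL, against 7.28, 7.18 and 7.73 in untreated parental cells, a rise of 1.89 ± 0.21 (limma adjusted p = 1.0e-06). In TTR cells it was at 7.02, 7.41 and 7.36 with TRAIL, against 6.55, 7.21 and 7.68 untreated, and these arrays overlapped (difference 0.12, adjusted p = 0.83).

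Most hosts of the members that rose were not called higher themselves, as held for most genes. By position in the RefSeq gene table of GRCh38.p14, read without regard to strand, 70 members lay in 1 gene and 7 in several. A host among the genes tested was found for 58 members, in 48 host genes. Of the 48 members that were called higher and had such a host, the host was called higher for 12, not called for 13 and called lower for 23. After median centring these counts were 5, 11 and 21 of 37, and after quantile normalization 14, 12 and 15 of 41. Counted once each, the 41 host genes of the 48 members were called higher for 24.4% and lower for 46.3%. Over all genes these shares were 28.9% and 29.9%. Of other genes at levels 6 to 8 and 8 or more, 55.4% and 70.7% were called lower. The signed change of the member was above that of its host for 53 of the 58 members, while in size the host moved more than the member for 19 of them. The hosts had a median change of −0.16, between −2.20 and 0.88, against a median of 1.01 for the 58 members.

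In several pairs the RNA rose while its host fell. SNORA23 rose by 0.69 while its host IPO7, a nuclear import receptor gene, fell by 1.33 (limma adjusted p = 2.6e-07). SNORA38B rose by 0.87 while NOL11, a ribosome assembly factor gene, fell by 1.41, with an adjusted p of 1.9e-07. SCARNA8 rose by 1.45 while HAUS6 fell by 1.44, and SCARNA7 rose by 1.20 while the importin gene KPNA4 fell by 1.39. SNORA70E rose by 0.45 while RAB30, at −2.20, had the lowest change of the 48 hosts. These last 3 pairs were picked after their values were seen. The call on SNORA70E was lost under 2 alternatives, and probes of its family may read other copies.

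The hosts of the largest rises were not called or rose by less than their RNAs. EEF1B2, host of SNORA41, differed by 0.23 ± 0.12 and was not called (limma adjusted p = 0.126). EIF5, host of SNORA28, rose by 0.47 ± 0.10 (adjusted p = 0.00077). RPL12, host of SNORA65, rose by 0.27 ± 0.09 (adjusted p = 0.0142), a call that median centring ended with a value of −0.02, as it turned EEF1B2 to −0.06 and RPL27A to −0.10. NCL, the gene of nucleolin and host of SNORA75, rose by 0.79 ± 0.16 (adjusted p = 0.00046), against 2.10 for SNORA75. Of 5 ribosomal protein hosts measured, RPL12 was the 1 that was called, and their changes lay between −0.14 and 0.27. Over all 48 hosts, 11 were called higher (22.9%) and 22 lower (45.8%), where 28.9% of all genes were called higher and 29.9% lower, and 70.7% of other genes at a level of 8 or more were called lower. Median centring gave 5 and 29, and quantile normalization 15 and 20.

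**Figure D4:**
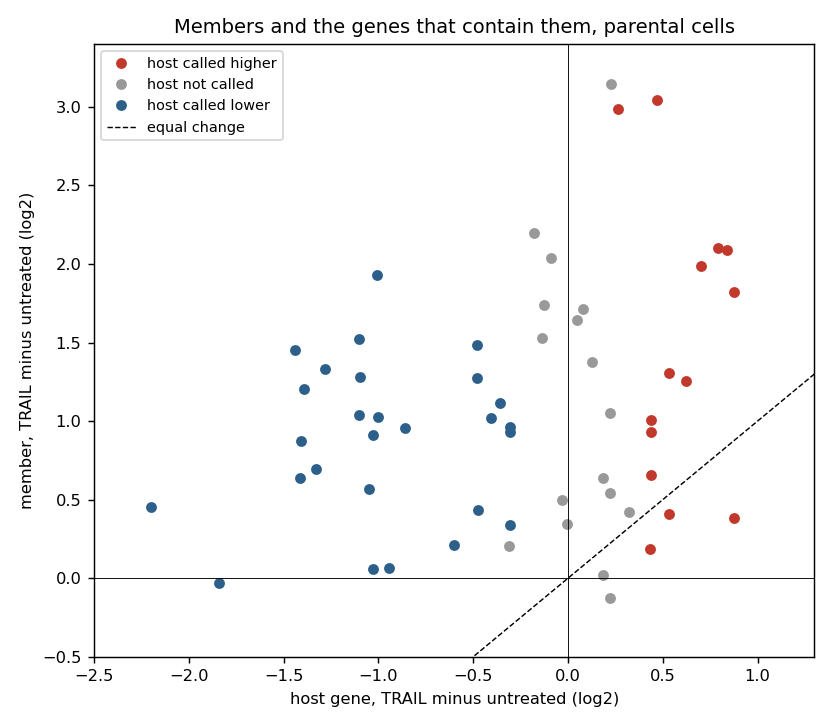
Change with TRAIL in parental cells of each of the 58 members with a measured host (vertical axis, log2) against the change of that host (horizontal axis, log2); colour gives the call on the host, and the dashed line is equal change. Of the 58 points 53 lie above the line. Members that share a host share their horizontal position.

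RNAs from a single host could still differ. KHDC4 rose by 0.88 ± 0.09, and of its RNAs SNORA80E rose by 1.82 while SCARNA4 differed by 0.38 without passing. In CNOT1, which fell by 1.03, SNORA50A rose by 0.91 and SNORA46 differed by 0.06. In TCP1, which fell by 1.10, SNORA29 rose by 1.52 and SNORA20 by 1.04. In ATG16L1, which fell by 0.48, SCARNA6 rose by 1.48 and SCARNA5 by 1.27. Whether such members differed from one another was not tested, and SNORA46 and SNORA29 have means under 4. The array does not separate a finished RNA from the intron or precursor that contains it.

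Many snoRNA hosts are known for a terminal oligopyrimidine tract, a run of C and T at the start of the transcript that ties their translation to growth signals. The starts of the 4 hosts of the largest rises that lie in 1 gene are shown, from 40 bases before to 25 bases after the annotated start, on the strand of the gene, from RefSeq on GRCh38.p14. EEF1B2 is at chr2:206159569-206159633 (+), EIF5 at chr14:103334197-103334261 (+), RPL12 at chr9:127451382-127451446 (−) and RPS12 at chr6:132814529-132814593 (+). Capitals mark a C followed by at least 4 pyrimidines that begins within 10 bases of the start, where there is one.
EEF1B2: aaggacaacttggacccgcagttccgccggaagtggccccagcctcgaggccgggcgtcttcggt
EIF5: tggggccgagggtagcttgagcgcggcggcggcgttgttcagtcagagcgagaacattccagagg
RPL12: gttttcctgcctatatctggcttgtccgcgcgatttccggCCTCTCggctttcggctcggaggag
RPS12: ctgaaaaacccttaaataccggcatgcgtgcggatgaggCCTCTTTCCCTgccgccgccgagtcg
RPL12 and RPS12 hold such a run near the annotated start, and EEF1B2 and EIF5 do not. Whether the run bears on the rise of SNORA41, SNORA28, SNORA65 or SNORA33 was not tested. Of 50 hosts with a promoter entry, of 59 hosts in all, 26 (52%) held the run, as did 31.4% of all 35116 promoters, read on the strand of each gene. A match, or the lack of one near the annotated start, is a description of letters. It does not show whether a working tract is present.

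The mRNAs of the proteins that build and hold these RNAs did not follow them. Protein was not measured, and protein names here and below stand for the mRNAs of their genes. With TRAIL in parental cells 29.9% of all genes were called lower. Of other genes at levels 6 to 8 and 8 or more, 55.4% and 70.7% were, to be read beside the counts below. Of the 4 box H/ACA core proteins, 3 were called lower with TRAIL in parental cells, DKC1 at −0.40 ± 0.12, NOP10 at −0.30 ± 0.11 and NHP2 at −0.28 ± 0.09, while GAR1 was at 0.01 and not called. After median centring 4 of 4 were lower and after quantile normalization 0 of 4 were called, so the call on this list rested on the scaling. All 7 assembly factors were called lower, 7 after median centring and 5 after quantile normalization. Among them NAF1, which binds new box H/ACA RNAs before GAR1 takes its place, fell by 1.47 ± 0.13 (limma adjusted p = 3.5e-08), SHQ1, a chaperone of DKC1, fell by 1.22 ± 0.12 (adjusted p = 2.4e-07), and RUVBL1 fell by 1.04.

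Of 16 measured Cajal body proteins, 10 were called lower and 1 higher with TRAIL in parental cells. Median centring gave 13 lower and 0 higher, and quantile normalization 10 and 2. GEMIN5 fell by 1.33, DDX20 by 1.13 and COIL, the gene of the marker protein coilin, by 0.99, while ELL, an elongation factor, rose by 0.46. WRAP53, which binds the CAB box, differed by 0.19 and was not called. Of 21 measured genes of 3′ trimming and nuclear decay, 15 were called lower and 1 higher, with 19 and 1 after centring and 13 and 1 after the quantile step. EXOSC1 and EXOSC8 of the RNA exosome fell by 1.79 and 1.58 and the exonuclease gene XRN2 by 1.40, and EXOSC6 rose by 0.70. Beside these shares, 29.9% of all genes were called lower, and above level 8 the share of other genes was 70.7%.

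Other structured noncoding RNAs moved with the members. TERC, the telomerase RNA, which ends in a box H/ACA domain, rose by 1.39 ± 0.15 in parental cells (limma adjusted p = 7.9e-07), and TERT, its protein partner, by 0.35. TERC alone of this pair kept the call after centring and after the quantile step (1 of 2 each). Of 115 box C/D small nucleolar RNAs, 66 were called higher and 1 lower, with a median of 0.75, with 59 and 23 after centring and 63 and 2 after the quantile step. Over all genes 28.9% were called higher and 29.9% lower, to be read beside this list and the 2 that follow. SNORD61 and SNORD54 rose by 4.03 and 3.69. Of 15 genes with RNU symbols, most of them spliceosomal RNAs and so the targets of Cajal body RNAs, 14 were called higher, with a median of 1.88, with 12 after centring and 13 after the quantile step. RNU12 and RNU11 of the minor spliceosome rose by 3.93 and 3.54. The box C/D proteins FBL and NOP58 were at −0.63, called lower, and at 0.14, not called. The 4 measured SNHG-type hosts, noncoding genes whose introns hold snoRNAs, were all called higher, led by EPB41L4A-AS1 at 1.93 and ZFAS1 at 1.37.

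**Figure D5:**
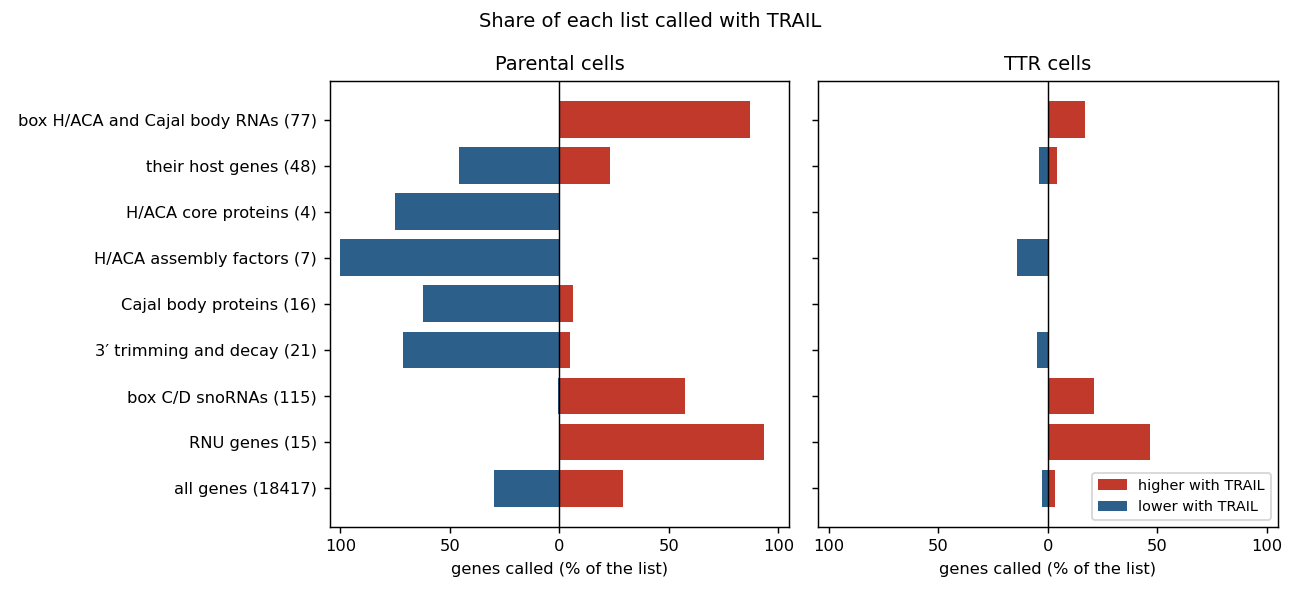
Share of each list called with TRAIL (horizontal axis, percent of the list, lower to the left and higher to the right) in parental cells (left) and TTR cells (right); list sizes are in brackets. In parental cells the bars of the 3 RNA lists reach to the right and those of the 4 protein lists, read as mRNA, mainly to the left. In TTR cells all bars are shorter.

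In TTR cells TRAIL raised 13 of the 77 members and lowered 0, where 3.27% of all genes were called higher and 2.55% lower. The median change was 0.16, against −0.01 over all other genes. At an unadjusted p under 0.05 there were 21 members higher and 0 lower, where 1586 and 2208 of all 18417 genes were. Median centring left 10 of the 13 called and quantile normalization 9. Over all genes 2.43% and 2.44% were called higher under these scalings. The 13 were SNORA55, SNORA74A, SCARNA11, SNORA69, SNORA70G, SNORA65, SNORA80B, SNORA70B, SNORA67, SNORA27, SNORA80A, SNORA33 and SNORA75, and all of them were also called higher in parental cells. Only SNORA55 and SNORA74A kept the call under every alternative run. The TTR arrays with TRAIL lay wholly above the untreated ones for 14 members and wholly below for 0, where this held for 11.2% and 16.3% of all genes. Leaving out 1 array at a time gave between 3 and 17 calls, with 3 without untreated TTR replicate 2, 5 without TRAIL-treated TTR replicate 2, 6 without TRAIL-treated TTR replicate 3 and 7 without untreated TTR replicate 1.

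SCARNA11 was the only Cajal body RNA called in TTR cells. It was at 5.26, 5.36 and 5.71 with TRAIL, against 4.44, 4.48 and 4.99 untreated, a rise of 0.81 ± 0.17 (limma adjusted p = 0.0107). SNORA69, carried in RPL39, was at 4.63, 4.96 and 4.15 with TRAIL, against 3.59, 3.99 and 3.75 untreated, a rise of 0.80 ± 0.16 (adjusted p = 0.0084). Neither pair of groups overlapped, though the call on SCARNA11 was lost without untreated TTR replicate 2 and without TRAIL-treated TTR replicate 3, and that on SNORA69 without TRAIL-treated TTR replicate 2. SNORA70G, of a multicopy family and at a low level, was at 4.28, 4.15 and 3.96 with TRAIL, against 3.62, 3.16 and 3.36 untreated, a rise of 0.75 ± 0.15 (limma adjusted p = 0.0076). Its rise in parental cells was 0.64, and the difference of 0.12 between the lines did not pass (adjusted p = 0.711).

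Of the other lists, TRAIL in TTR cells raised 24 of 115 box C/D RNAs and 7 of 15 RNU genes, with RNU11 at 2.32 and RNU12 at 1.81. TERC, at 0.22, was not called. Beside the counts of these lists, 3.27% of all genes were called higher and 2.55% lower. No box H/ACA core protein passed in limma (0 of 4, 1 at an unadjusted p under 0.05), nor did any Cajal body protein (0 of 16, 5 at an unadjusted p under 0.05). NAF1 and EXOSC1 fell by 0.47 and 0.41, and NOP58 rose by 0.39. Of the 48 hosts, 2 were called higher and 2 lower (4.17% each), near the shares of all genes. The called hosts were KHDC4 at 0.48, PRRC2A at 0.55, RAB30 at −0.47 and PPP2R5A at −0.46, named here after their values were seen.

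Untreated, few of these RNAs were called different between the lines, as held for all genes. Of the 77 members, 1 was called higher and 1 lower in TTR cells than in parental cells, where 3.64% of all genes were called higher and 3.47% lower, and the median difference was 0.02. SNORA74A was at 4.82, 5.48 and 5.96 in untreated TTR cells, against 6.47, 6.41 and 6.56 in untreated parental cells, a difference of −1.06 ± 0.20 (limma adjusted p = 0.004). These arrays did not overlap, and the call held under all 20 alternatives. SCARNA22, carried in the histone methyltransferase gene NSD2, was at 6.86, 7.40 and 7.41 in untreated TTR cells, against 6.52, 6.63 and 6.71 in untreated parental cells, a difference of 0.60 ± 0.17 (adjusted p = 0.0386). That call was lost under 7 of 20 alternatives, 6 of which left out an array: untreated parental replicates 1, 2 and 3, untreated TTR replicates 2 and 3, and TRAIL-treated TTR replicate 2. The count of calls was 5 with a replicate block and 5 without untreated TTR replicate 1. SNORA28, at 0.64 in the fit reported here (limma adjusted p = 0.0547), was among those called in both. At an unadjusted p under 0.05 the count was 7 of the 77 members, where it was 3475 of all 18417 genes. The arrays of the lines did not overlap for 4 members higher and 1 lower in TTR cells, where this held for 12% and 12.5% of all genes.

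Of the partner lists, the untreated TTR cells had lower SHQ1 (−0.55) and PIH1D1 (−0.46) among 7 assembly factors, lower GEMIN6 (−0.73) among 16 Cajal body proteins, and 4 of 21 trimming and decay genes lower, with EXOSC4 at −0.81. The 4 core proteins had differences between −0.33 and −0.23, none called (0 of 4 in limma, 3 at an unadjusted p under 0.05). Of the 15 RNU genes 0 were called in limma and 1 was at an unadjusted p under 0.05. Beside the counts of these lists, 3.64% of all genes were called higher and 3.47% lower.

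With TRAIL the lines stood apart. In TTR cells 59 members were called lower and 1 higher than in parental cells, where 26.4% of all genes were called lower and 28% higher, and the median difference was −1.002 against −0.06 over all other genes. The largest falls were SNORA41 at −2.76 ± 0.29, SNORA65 at −2.63 ± 0.18, SNORA74A at −2.44 ± 0.20 and SNORA33 at −2.24 ± 0.13, with limma adjusted p of 6.2e-07, 7.2e-09, 4.8e-08 and 1.9e-09. The TTR arrays lay wholly below the parental ones for 60 members, these 4 among them, and wholly above for 0, where this held for 30.5% and 29.7% of all genes. The member called higher was SNORA16B, at 2.89, 3.19 and 2.48 in TTR cells with TRAIL, against 2.60, 2.55 and 2.32 in parental cells with TRAIL. It is named after its values were seen, lies at the bottom of the range of levels, and its arrays overlapped (difference 0.37, adjusted p = 0.0367). Of 18 members with a mean of 8 or more that were called, all were lower in TTR cells, while of other genes in that range 67.6% were called higher and 13.4% lower. NAF1 and COIL were higher in TTR cells with TRAIL by 0.94 and 1.02, and TERC was lower at −0.87.

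The TRAIL effect itself was smaller in TTR cells for most members. The interaction, the TTR effect minus the parental effect, was called below 0 for 60 of the 77 and above 0 for none (0 in limma, 0 at an unadjusted p under 0.05), where 14.3% of all genes were called below 0 and 22.9% above. The median was −1.15 against −0.03 over all other genes, and 72 of 77 were below 0 in size. All 60 were among those called higher in parental cells, and they included 11 of the 13 called higher in both lines. The smallest p-values were those of SNORA33 at −2.36 ± 0.19, SNORA28 at −2.48 ± 0.27, SNORA67 at −1.87 ± 0.21, SCARNA17 at −1.38 ± 0.15, SNORA65 at −2.27 ± 0.26 and SNORA75 at −1.60 ± 0.19, with limma adjusted p between 4.0e-07 and 6.6e-06. After median centring 51 were called below 0 and 1 above, which was SNORA16B, and after quantile normalization 58 below. Over all genes 6.92% were called below 0 and 29.4% above after centring, and 12.5% below after the quantile step.

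SNORA67, carried in the initiation factor gene EIF4A1, and SNORA75 show this at higher levels. SNORA67 was at 8.68, 9.01 and 9.04 in TTR cells with TRAIL, against 8.05, 8.19 and 8.68 in untreated TTR cells. In parental cells it was at 10.80, 11.02 and 10.85 with TRAIL, against 8.44, 8.26 and 8.53 untreated. The rises were 0.60 in TTR cells, where the arrays touched, and 2.48 in parental cells, where they did not. SNORA75 was at 7.0, 7.19 and 7.27 in TTR cells with TRAIL, against 6.49, 6.52 and 6.94 in untreated TTR cells. In parental cells it was at 8.86, 8.71 and 8.71 with TRAIL, against 6.54, 6.54 and 6.88 untreated. Both untreated groups of SNORA75 thus stood at like levels, 6.65 ± 0.25 in TTR cells and 6.66 ± 0.20 in parental cells (SD, n = 3 each).

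Partner genes called in the interaction mostly had the opposite sign, as did other genes at higher levels. Called above 0 were 1 of 4 core proteins, 4 of 7 assembly factors, 6 of 16 Cajal body proteins and 12 of 21 trimming and decay genes, where 22.9% of all genes were. Of other genes at levels 6 to 8 and 8 or more, 44.7% and 63.4% were called above 0. The 1 partner gene called below 0 was EXOSC6 at −0.72, a trimming and decay gene. In size, 3 of 16 Cajal body and 3 of 21 trimming and decay genes were below 0. After quantile normalization the counts above 0 were 0, 4, 5 and 7. NAF1, RUVBL1, GEMIN5, DDX20, EXOSC1 and XRN2, which fell in parental cells, had TTR effects above the parental ones by 1.00, 0.98, 1.17, 0.87, 1.38 and 1.12, with limma adjusted p between 6.3e-06 and 0.0005. DKC1 had an interaction of 0.59 (adjusted p = 0.0135), a call that was lost after quantile normalization. TERC, SNORD54 and RNU12 moved as the members did, with interactions of −1.16, −3.32 and −2.11. The comparisons share arrays, since untreated and treated arrays of each line enter both the TRAIL effects and the differences between lines, so these values are not independent of one another.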

How the data were processed

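The authors' deposited table holds log2 expression values, which per the submitters' processing notes came from RMA in Affymetrix Power Tools; of its version, settings and genome build nothing was found in the labels. Per the labels' protocols, biotinylated cRNA was made from total RNA extracted with Trizol. The table has 33252 rows and 12 arrays, of which 19460 rows name 1 gene, 1754 several and 12038 none, which left 18417 genes. Columns without a sample numbered 0, and 0 pairs of arrays held identical values.

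All 12 arrays were fitted with limma 3.58.1 in R 4.3.3 (lmFit, eBayes, 1 mean per group, no block), with 8 residual and 7.87 prior degrees of freedom, two-sided, Benjamini-Hochberg over all genes at 0.05, and the fit was tested on simulated data. With 3 arrays a group, exact permutation reaches no p under 0.1, and it was not used. The number of arrays limits the precision: the median SE of a difference was 0.17 for members and 0.11 for all genes.

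The members and lists were chosen with earlier results of these data known. The lists were H/ACA core proteins, H/ACA assembly factors, Cajal body proteins, 3′ trimming and nuclear decay, box C/D core proteins, telomerase, box C/D RNAs, RNU genes, SNHG hosts and markers of cell types. Named were the 8 members of highest mean, per comparison the 6 largest rises and 4 largest falls among called members whose arrays did not overlap, the 6 smallest interaction p-values, all SCARNA members in parental cells, the 2 smallest p-values per list and comparison, and the hosts of named members. Alternatives were median centring, quantile normalization, the mean of a gene's rows, leaving out the genes of lowest level, only the groups compared, array weights, a replicate block and leaving out each array. All 77 members matched the RefSeq table of GRCh38.p14, used for hosts and not for coordinates of members. Counts and plots were made in Python 3.11.15 with matplotlib 3.10.9.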

Additional observations from a re-analysis of the deposited data

Results flagged for a closer look

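The TRAIL effect differed between the lines by the interaction test for 30 of the members named. Among SNORA members the TTR effect minus the parental effect was −2.48 for SNORA28, −2.39 for SNORA41, −2.36 for SNORA33, −2.27 for SNORA65, −1.87 for SNORA67, −1.67 for SNORA69, −1.60 for SNORA75, −1.38 for SNORA74A and −1.24 for SNORA55. Of the members with the highest levels, it was −1.01 for SNORA38B, −0.99 for SNORA24, −0.88 for SNORA71A, −0.79 for SNORA71C, −0.77 for SNORA23, −0.74 for SNORA68, −0.68 for SNORA3A and −0.58 for SNORA71D. Among Cajal body RNAs it was −1.78 for SCARNA16, −1.65 for SCARNA6, −1.64 for SCARNA9, −1.42 for SCARNA1, −1.41 for SCARNA5, −1.39 for SCARNA22, −1.38 for SCARNA17, −1.32 for SCARNA12, −1.27 for SCARNA9L, −1.19 for SCARNA10, −1.18 for SCARNA8, −1.05 for SCARNA7 and −0.87 for SCARNA11.

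Rows outside the comparisons, which name a SNORA or SCARNA symbol together with another gene, also moved with TRAIL. Of 28 such rows, 24 were called higher and 3 lower in parental cells, with a median of 1.33, and 5 higher and 0 lower in TTR cells, with a median of 0.23. These rows may read the other gene, so no RNA is named from them.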

How the results depend on the processing

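Counts of members called with TRAIL in parental cells (67), in TTR against parental cells with TRAIL (60) and in the interaction (60) stayed within 1.5 times under every alternative run, between 57 and 69, 53 and 61, and 52 and 62; 56, 51 and 50 of these members were called the same way under all of them. With TRAIL in TTR cells, 13 members were called, and leaving out 1 array gave 3 to 17. For untreated TTR against parental cells, 2 were called, 1 after quantile normalization, 5 with a replicate block (4 higher, 1 lower) and 1 to 5 when 1 array was left out. With parental arrays with TRAIL left out of the fit, an alternative chosen after seeing the data, the last 2 counts were 13 and 2. Same-numbered arrays of compared groups had correlations of their deviations between −0.03 and 0.25, with no comparison where all 3 were above 0.1. These weak correlations do not settle whether replicate numbers pair the arrays. A code in the sample descriptions is common to the arrays of a number but is not explained. The block gave 67 calls with TRAIL in parental cells, 15 with TRAIL in TTR cells, 61 between the lines with TRAIL and 61 in the interaction. Among the 15 were SNORA28 and SNORA41, with limma adjusted p of 0.042 and 0.043 under the block. Over all genes with TRAIL in TTR cells, the block gave 810 higher and 757 lower, against 602 and 470 without it. Of the calls over all genes with TRAIL in parental cells, 49.1% were higher, 21.3% after median centring and 37.9% after quantile normalization. In TTR cells these shares were 56.2%, 18.7% and 47%.

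For 148 named results, each run in the comparison it was named for, 2829 values under alternatives gave 2688 on the same side and direction, 87 no longer past the threshold, 38 newly past it and 16 of the other sign. With TRAIL in parental cells, median centring gave the other sign for EEF1B2 (−0.063), NOP58 (−0.15), NSD2 (−0.16), RPL12 (−0.025), RPL27A (−0.10), SCARNA14 (−0.23) and SCARNA23 (−0.076), and quantile normalization for SCARNA14 (−0.038). With TRAIL in TTR cells, TERT was at −0.074 after median centring, −0.077 after quantile normalization and −0.0073 with array weights, and between −0.069 and 0.093 when 1 array was left out. For untreated TTR against parental cells, leaving out 1 array put TERT between −0.19 and 0.063 and FBL between −0.17 and 0.0056. The causes were not tested beyond the shift of the array medians given above. Of all these values, RPL12 was the one called in the reported fit.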
